A study of Mus musculus with 3 samples.

Results

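Parietal-like cells, the acid-secreting cells of the stomach gland, were followed in single-cell RNA profiles of the embryonic mouse hindstomach, the glandular part of the stomach. A cell was counted as a member when at least 3 of 10 genes had at least 1 unique molecular identifier (UMI, a tag that counts one captured RNA molecule), and when at least 1 of these was Atp4a or Atp4b. The 10 rule genes were Atp4a, Atp4b, Smim38, Sycn, Esrrg, Ybx2, Trim50, Tnni3, Kcne1 and Tmprss9. The rule found 402 members among the 21602 cells that passed the quality filter, which asked for 500 or more genes and a mitochondrial share of no more than 20%. Membership was set by these measured values, so the levels of the 10 genes in members are given as a description.

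Parietal cells secrete hydrochloric acid through the gastric proton pump, an exchanger of protons for potassium whose catalytic subunit is encoded by Atp4a and whose accessory subunit is encoded by Atp4b. Potassium channels of the luminal membrane return potassium to the pump, and basolateral exchangers load the cell with chloride and export bicarbonate. The cells are packed with mitochondria, which supply the ATP that the pump consumes, and the orphan nuclear receptor encoded by Esrrg is a known regulator of their metabolic genes.

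The series compared 3 genotypes at embryonic day 18.5, with 1 library each. The control was Shh-Cre, the YAP5SA group was Shh-Cre;YAP5SA, and the YapKO group was Shh-Cre;YaploxP/loxP. All 3 carried Shh-Cre, a recombinase active in Shh-expressing gut epithelium and its descendants, so the alleles were altered in the epithelium and not in most stromal cells. YAP5SA is a form of the transcriptional coactivator YAP with serines mutated so that Hippo kinases cannot restrain it. Tissue was dissociated with trypsin, and 3′ ends of transcripts were counted in droplets. The labels do not say how many embryos went into a library. With 1 library a genotype no difference between genotypes has a replicate check and no test was made. Intervals are exact 95% intervals that cover counting error only, and no difference can be told apart from a difference between litters, dissociations or runs.

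After filtering, 7372 control, 9029 YAP5SA and 5201 YapKO cells were kept, with a median of 4949.5, 5255 and 5021 UMIs per cell. Yap1 was read at 47.5 counts per 1000000 UMIs (CPM) in the other epithelial clusters of the control, 55.0 CPM in YAP5SA and 25.7 CPM in YapKO. In members of the proton-pump cluster described below it was 39.7 CPM in the control and 26.3 CPM in YapKO, from 15 and 25 UMIs, a ratio of 0.664 (0.337 to 1.35). A 3′ tag can still be read from an allele that lacks an internal exon and may miss a transgene, so Yap1 counts check these labels only weakly.

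The members were few in the control, fewest in YAP5SA and most frequent in YapKO. There were 99 members in the control, or 1.34% of filtered cells (1.09 to 1.63%). YAP5SA had 5, or 0.055% (0.018 to 0.129%). YapKO had 298, or 5.73% (5.11 to 6.40%). The YapKO share was 4.27 times the control share (3.39 to 5.41), and the YAP5SA share was 24.3 times lower than the control share (10.0 to 76.3). After every cell was thinned to 1000 UMIs, the lowest depth of a filtered cell, 45, 3 and 140 cells met the rule and the YapKO ratio was 4.41 (3.13 to 6.32).

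Members fell into 2 kinds that a joint clustering of all filtered cells separated. One of 29 clusters was led by Atp4b, Atp4a, Smim38, Tnni3, Bpifb1 and Sycn and held 56 control, 3 YAP5SA and 161 YapKO members, 220 in all. The label parietal-like is used for these cells. Atp4a, Atp4b, Smim38, Esrrg, Sycn and Ybx2 were all detected in this cluster. All 6 are rule genes that chose the members and were used in the clustering, so their detection cannot check the label. Sycn and Ybx2 were missing from many control and YapKO members of the cluster and from all 3 YAP5SA members. The other 182 members lay in other clusters. In the control 43 such members had a median of 16196 UMIs against 3991 in the pump-cluster members, and 40 of them held exactly 3 rule genes. In YapKO 137 had a median of 17431 UMIs, and 106 of them held exactly 3. Clusters that were not epithelial held 34 of the control and 70 of the YapKO cells. Epithelial clusters held 9 and 67, of which 5 and 53 lay in the cluster led by Pga5. Rule genes reached 2000 CPM in 1 control and 15 YapKO members outside the pump cluster. Over all members outside it, rule genes summed to 218 CPM in the control and 397 CPM in YapKO, against 20226 and 15688 CPM in the pump-cluster members.

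Proton-pump RNA was also found in cells that should lack it. In non-epithelial clusters 16.1% of control cells held a pump UMI, 0.632% of YAP5SA cells and 30.9% of YapKO cells. The median depth of those cells was 5297.5, 5037 and 5721 UMIs. After thinning to 1000 UMIs only 0 control, 1 YAP5SA and 4 YapKO cells outside the pump cluster still met the rule. Members outside the cluster carried 69.8% of all member UMIs in the control and 77.0% in YapKO, so most UMIs of all 402 members came from outside it. Results are given for the pump cluster first, and for all members beside it. At the boundary of the rule, 173 cells with exactly 3 rule genes had a median of 253 CPM in those genes, and 694 cells with a pump gene and exactly 2 had 213 CPM. Within the pump cluster, 26 members with 3 rule genes had 7664 CPM and 10 cells with 2 had 7880 CPM.

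**Figure D1:**
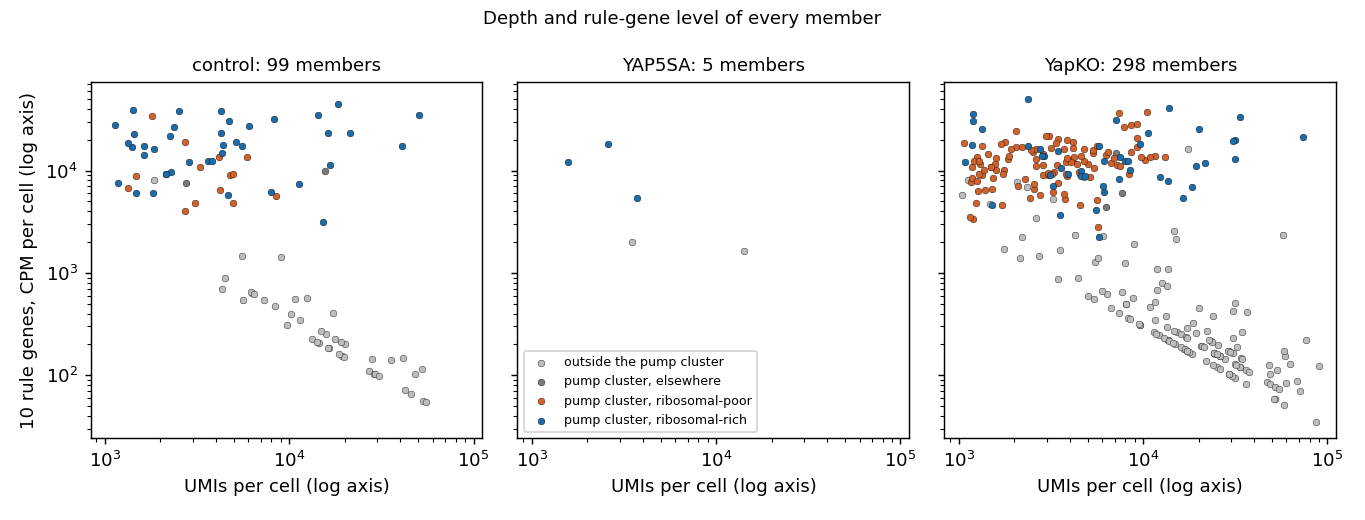
Each point is 1 of the 402 members, with its UMIs (x, log axis) and the summed level of its 10 rule genes in CPM (y, log axis), for control, YAP5SA and YapKO. Pump-cluster members (blue ribosomal-rich, orange ribosomal-poor, dark grey elsewhere, groups described in the text) lie at 2255 CPM or above, while most members outside the cluster (light grey) are lower and deeper.

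Counted in the pump cluster alone, members made up 0.760% of filtered cells in the control (0.574 to 0.985%), 0.033% in YAP5SA and 3.10% in YapKO (2.64 to 3.60%), a YapKO ratio of 4.08 (2.99 to 5.63). Epithelial cells were a larger part of the YapKO library, so the same count was also taken among epithelial cluster cells. There the members made up 56 of 1004 control cells, or 5.58%, and 161 of 1429 YapKO cells, or 11.3%, a ratio of 2.02 (1.48 to 2.79). In YAP5SA they were 3 of 1910 epithelial cluster cells.

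The pump-cluster members fell into 2 states, and control and YapKO differed in how these were mixed. When the 10 rule genes were left out of the clustering, 215 of the 220 members fell into just 2 groups. These differed widely in RNA of ribosomal proteins, the building blocks of ribosomes. The ribosomal-rich group, led by Clps, Tff1, Pga5 and Bpifb1, held 40 control members, 3 YAP5SA members and 47 YapKO members. The ribosomal-poor group, led by Zfp791, Atp4a, Taco1 and Ccnb1ip1, held 14 control, 0 YAP5SA and 111 YapKO members. The 0 of 9029 YAP5SA cells has an exact upper limit of 0.0408%. The remaining 2 control and 3 YapKO members lay elsewhere. Both groups also held many cells that were not members, 553 control and 552 YapKO cells in the ribosomal-rich group and 333 and 597 in the ribosomal-poor group. These groups were defined after the data had been seen.

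Ribosomal-rich members had a median of 17.9% of their UMIs in ribosomal-protein genes in the control and 16.5% in YapKO. Ribosomal-poor members had 5.28% and 5.14%. Only 1 of 40 control ribosomal-rich members and 12 of 47 in YapKO were under 10%, against 12 of 14 and 95 of 111 ribosomal-poor members, so the states overlapped more in YapKO. Both states carried strong pump RNA, with a median of 39.5 and 54.0 pump UMIs per ribosomal-rich cell and 27.0 in ribosomal-poor cells of either library. Median depth was 4037 and 6033 UMIs in ribosomal-rich members and 3720 and 3162 in ribosomal-poor ones. The median mitochondrial share was 3.36% and 1.45% in ribosomal-rich members, 6.92% in control ribosomal-poor members and 0.67% in YapKO ribosomal-poor members.

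**Figure D2:**
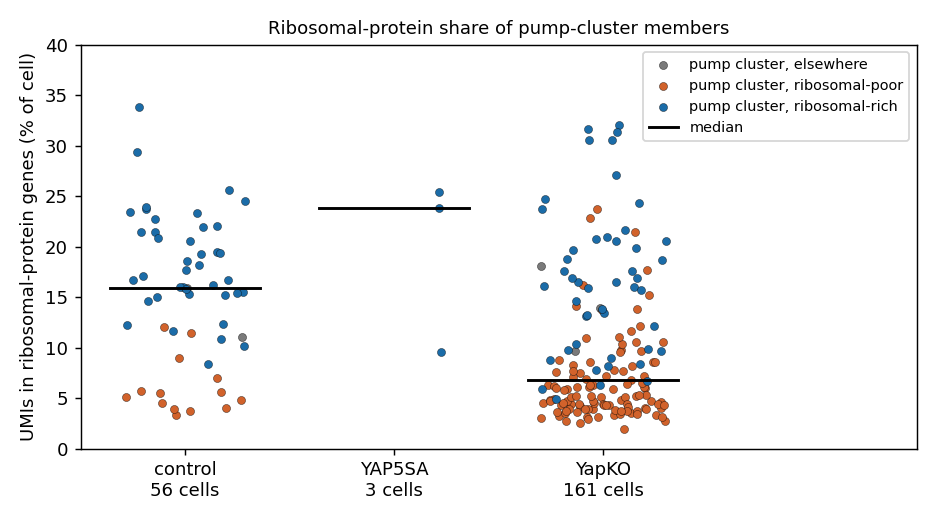
Percent of UMIs in ribosomal-protein genes (y) in each pump-cluster member of the 3 libraries, coloured by the group the cell fell into without the rule genes, with the median as a black line. The 161 YapKO cells lie mostly near 5% and the 56 control cells mostly above 10%.

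Within the pump cluster, the YapKO and control shares differed more in the ribosomal-poor than in the ribosomal-rich state. Ribosomal-rich members were 0.543% of filtered control cells and 0.904% of YapKO cells, a ratio of 1.67 (1.07 to 2.61). Shares within a group leave out members that lay outside the pump cluster. With those, the ribosomal-rich group held 599 control and 657 YapKO cells, and the ribosomal-poor group 350 and 714. Without them, ribosomal-rich members were 40 of 593 cells, or 6.75%, in the control and 47 of 599, or 7.85%, in YapKO. That is a ratio of 1.16 (0.747 to 1.82), whose interval includes 1. Ribosomal-poor members were 0.190% of filtered control cells and 2.13% of YapKO cells, a ratio of 11.2 (6.42 to 21.2). Within their group they were 14 of 347 cells, or 4.03%, and 111 of 708, or 15.7%, a ratio of 3.89 (2.22 to 7.34). Outside the pump cluster members also made up a larger share in YapKO, 2.72% of those cells against 0.588%. A plain threshold gave a like picture: among epithelial cluster cells with at least 10% ribosomal UMIs the ratio was 1.27 (0.832 to 1.94), and among those under 10% it was 3.75 (2.10 to 7.28).

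A low share of ribosomal-protein RNA was not particular to parietal-like cells. Among the other epithelial clusters 37.0% of control and 56.9% of YapKO cells were under 10%, against 10.8% and 12.9% in non-epithelial clusters and 7.87% of other epithelial cells in YAP5SA. In pump-cluster members the figures were 23.2% and 67.1%. Whether the ribosomal-poor state was present in the tissue or arose in handling was not tested.

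Ribosomal-poor members held less RNA of the listed oxidative phosphorylation genes, all encoded in the nucleus, and more Malat1. The 76 genes summed to 14536 CPM in ribosomal-poor and 91441 CPM in ribosomal-rich control members. In YapKO the sums were 19404 and 71422 CPM. Malat1, a nuclear noncoding RNA, was read at 6137 and 582 CPM in control ribosomal-poor and ribosomal-rich members and at 9285 and 4026 CPM in YapKO. A single YapKO ribosomal-rich cell gave 41.7% of that group's Malat1 UMIs. The RNA of Cmss1 was 8714 CPM in ribosomal-poor against 2594 CPM in ribosomal-rich control members, and 25275 against 6229 CPM in YapKO.

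The rule genes themselves differed between the states. Atp4a was 6614 CPM in ribosomal-rich and 5840 CPM in ribosomal-poor control members, and 5666 and 8198 CPM in YapKO. Atp4b was 9711 and 1557 CPM in the control, and 8362 and 3080 CPM in YapKO. Atp4a therefore made up 40.5% of pump UMIs in control ribosomal-rich members (39.1 to 41.9%) and 40.4% in YapKO (39.2 to 41.6%), but 78.9% (74.6 to 82.8%) and 72.7% (71.4 to 73.9%) in ribosomal-poor ones. Pooled over the pump cluster the Atp4a part was 44.1% in the control and 53.8% in YapKO, while within ribosomal-rich members the intervals of the sums overlapped. The median over single ribosomal-rich cells was 38.0% in the control and 47.4% in YapKO.

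Ybx2, an RNA-binding protein best known from germ cells, was low in ribosomal-rich members and higher in ribosomal-poor ones. It was 22.9 and 204 CPM in the control, and 48.5 and 589 CPM in YapKO. Tmprss9, a membrane serine protease, followed the same order with 39.2 and 241 CPM in the control and 44.4 and 302 CPM in YapKO. Sycn, a zymogen-granule protein, and Kcne1, a potassium channel subunit, went the other way. Sycn was 1645 CPM in ribosomal-rich and 18.5 CPM in ribosomal-poor control members, the latter from 1 UMI. Kcne1 also had 1 UMI in control ribosomal-poor members. In control ribosomal-rich and ribosomal-poor members Ybx2 rested on 7 and 11 UMIs, and Tmprss9 on 12 and 13.

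**Figure D3:**
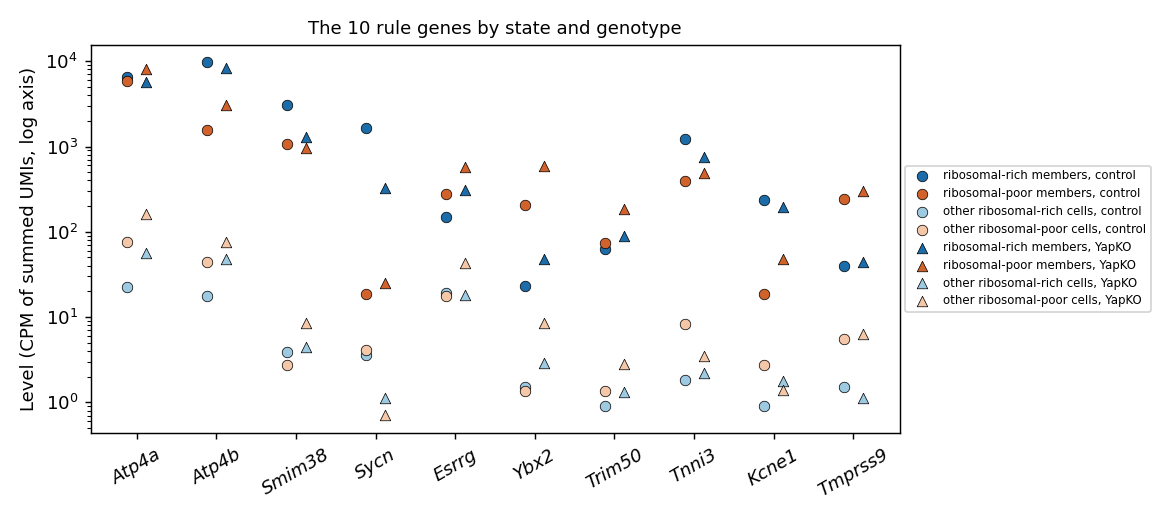
Level of each of the 10 rule genes in CPM of summed UMIs (y, log axis) in ribosomal-rich (blue) and ribosomal-poor (orange) members, with the other cells of the same 2 groups in pale colours, for control (circles) and YapKO (triangles). Members lie above the pale points for every gene, as the rule sets, and Atp4b, Sycn, Ybx2, Kcne1 and Tmprss9 differ between the states in both libraries. The control ribosomal-poor values of Sycn and Kcne1 rest on 1 UMI each.

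Within the ribosomal-rich state, some rule genes still differed between YapKO and control while the pump was close to equal. Atp4a was 1.17 times lower in YapKO (1.10 to 1.24) and Atp4b 1.16 times lower (1.11 to 1.22). Sycn was 327 CPM in YapKO against 1645 CPM, 5.03 times lower (4.20 to 6.04), with a UMI in 17 of 47 YapKO and 27 of 40 control cells. One cell gave 49.4% of the YapKO and 41.0% of the control Sycn UMIs. Smim38, a small membrane protein, was 1293 against 3025 CPM, 2.34 times lower (2.11 to 2.59), with 28.4% of the YapKO and 34.9% of the control UMIs in 1 cell. Tnni3, the cardiac troponin I, was 1.65 times lower (1.42 to 1.91). Esrrg was 311 against 147 CPM, 2.11 times higher (1.51 to 3.02), with 33.1% of the YapKO and 33.3% of the control UMIs in 1 cell. In the ribosomal-poor state Esrrg was 575 against 278 CPM, 2.07 times higher (1.23 to 3.75).

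For Ybx2, Trim50, Kcne1 and Tmprss9 the intervals within ribosomal-rich members included 1. Pooled over the pump cluster, Ybx2 was 6.22 times higher in YapKO (3.86 to 10.6), Trim50 2.23 times (1.43 to 3.65) and Tmprss9 2.32 times (1.53 to 3.63). In the ribosomal-rich state the same ratios were 2.12 (0.885 to 5.82), 1.43 (0.818 to 2.59) and 1.13 (0.536 to 2.51).

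Beyond the rule genes, ribosomal-rich members stood apart from the other cells of their group by ion transport genes, mitochondrial genes and a set of further transcripts. The other cells of that group had a median of 17.8% ribosomal UMIs in the control and 15.3% in YapKO. Genes with at least 20 CPM in either sum were compared, as log2 ratios with 5 CPM added, and 2-fold differences were counted. In the control 408 of 6681 genes were at least 2-fold higher, 6.11%, and 913 at least 2-fold lower, 13.7%. In YapKO 507 of 7096 were higher, 7.14%, and 628 lower, 8.85%. Of 6103 genes compared in both libraries, 346 were higher in the control and 381 in YapKO. Higher in both were 221, which is 63.9% and 58.0% of these. Lower were 839 in the control and 567 in YapKO, with 305 lower in both, and 3 genes went in opposite directions. Cells were chosen by RNA from the same profiles, so these counts describe the cells and test nothing.

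Genes of acid and ion transport, other than the rule genes, were higher in both libraries for 8 of 14 tested in the control and 9 of 16 in YapKO, with none 2-fold lower. Their median log2 ratio was 1.30 and 1.21, beside -0.24 and -0.06 over all genes tested. Without the deepest 5% of ribosomal-rich members the YapKO median was 0.61. Kcne2, the subunit that makes the luminal potassium channel of parietal cells constitutively open, was 98.1 CPM in members and 3.02 CPM in the other cells of the control, 32.5 times higher (15.5 to 74.5). In YapKO it was 143 CPM, from 71 UMIs, against 0.671 CPM from 3 UMIs, a ratio of 214 (70.2 to 1060). Kcnq1, its pore-forming partner, was 226 against 74.3 CPM in the control and 291 against 70.3 CPM in YapKO.

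Slc4a2, the basolateral exchanger of chloride for bicarbonate, was 566 CPM in control members and 549 CPM in YapKO members, 9.37 times (7.60 to 11.5) and 6.06 times (5.18 to 7.08) the other cells. Clic6, a chloride channel family member, was 324 and 303 CPM, 11.2 and 7.69 times the other cells. Slc26a9, a luminal chloride transporter, was 108 and 376 CPM against 16.6 and 36.5 CPM. Kcnj16, an inward rectifier potassium channel, was 58.9 and 48.5 CPM against 0.604 and 0.671 CPM, from 2 and 3 UMIs, with ratios of 97.5 (23.3 to 867) and 72.2 (21.9 to 375). Aqp4, the basolateral water channel, was 35.98 and 107 CPM, and 1 cell gave 62.3% of the YapKO UMIs. The carbonic anhydrase gene Car2 was under 2-fold different, at 399 and 509 CPM against 294 and 408 CPM.

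Receptors of the secretory stimuli were hardly read. Hrh2, the histamine receptor that drives acid secretion, had 4 UMIs in control and 12 in YapKO ribosomal-rich members and 0 in the other cells of the group. Cckbr, the gastrin receptor, had 5 and 3 UMIs. Of 18 canaliculus and trafficking genes, which build the secretory membrane, 0 of 16 tested were at least 2-fold higher and 4 lower in the control. In YapKO 1 of 17 was higher and 1 lower, and the medians were -0.21 and -0.33. Over all genes tested 6.11% were higher and 13.7% lower in the control, and 7.14% and 8.85% in YapKO. The medians over all genes were -0.24 and -0.06. Ezr, the membrane-actin linker of parietal cells, was 317 against 239 CPM and 442 against 281 CPM.

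Genes of oxidative phosphorylation were higher as a group. All 76 tested oxidative phosphorylation genes had a positive log2 ratio in the control, 51 of them at least 2-fold, with a median of 1.22. In YapKO all 75 tested were positive, 38 at least 2-fold, with a median of 1.03. Among the largest were Cox7a1, the contractile-tissue form of a cytochrome oxidase subunit, at 432 against 16.0 CPM in the control and 279 against 19.5 CPM in YapKO, with 53.0% of the control UMIs in 1 cell. Uqcrq, a complex III subunit, was 3716 against 873 CPM and 2224 against 720 CPM. Cycs, cytochrome c, was 304 against 91.8 CPM and 372 against 116 CPM.

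TCA cycle genes followed with a median of 0.58 and 0.96, and 5 and 8 of 18 were at least 2-fold higher. Fatty acid oxidation genes had a median of 0.52 and 0.45 with 5 and 3 of 17 higher. Glycolysis genes did not share this, with medians of 0.04 and 0.03. Over all genes tested the medians were -0.24 and -0.06, and 6.11% and 7.14% were at least 2-fold higher. The adenylate kinase gene Ak1 was 68.7 against 6.94 CPM and 58.6 against 8.95 CPM, and the brain-type creatine kinase gene Ckb was 2.02 and 2.13 times the other cells. They were the highest of the creatine and adenylate kinase list, whose median was 0.73 over 7 genes in the control and -0.32 over 5 in YapKO.

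**Figure D4:**
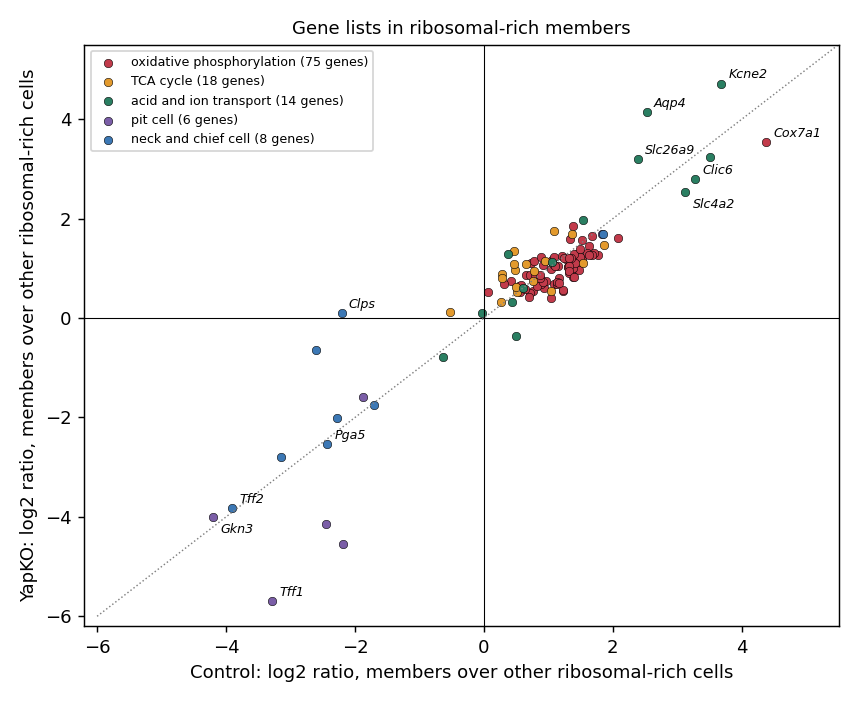
Log2 ratio of ribosomal-rich members over the other cells of their group in the control (x) and in YapKO (y), 1 point a gene, for 5 gene lists, with the line of equal ratios dotted. Oxidative phosphorylation genes sit in the upper right around 1, acid and ion transport genes reach above 4, and most pit, neck and chief genes lie in the lower left.

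Of the other genes with the highest ratios in both libraries, Cst8, a cystatin known from the epididymis, was 291 CPM in control members and 135 CPM in YapKO members, from 89 and 67 UMIs, against 0.906 and 1.12 CPM, from 3 and 5 UMIs. Its ratio was 321 in the control (106 to 1588) and 121 in YapKO (49.3 to 385). Apoa1, an apolipoprotein, was 4193 and 3531 CPM against 181 and 148 CPM, with a UMI in 38 of 40 and 42 of 47 cells. Pdlim4, Itpr2, Cited4, Cdkn2b, Gmpr, Snx6, Aldh1a1 and Dnajc15 were between 5.93 and 24.4 times the other cells in each library. Itpr2 encodes a calcium release channel, with 55.8% of its control UMIs in 1 cell, and Cdkn2b a cell-cycle inhibitor, with 50.0% of its YapKO UMIs in 1 cell. Apoa4 was 877 and 628 CPM against 17.2 and 92.2 CPM, but in YapKO its ratio changed direction when the cells were chosen by the 10% threshold. Bpifb1, a secreted protein among the leading genes of the cluster, was 31632 and 23817 CPM against 9582 and 6904 CPM.

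Products of the neighbouring gland cells were low. Of the 6 pit genes tested 5 were at least 2-fold lower in each library, and of the 8 neck and chief genes 7 in the control and 5 in YapKO. Tff1, a pit cell trefoil peptide, was 821 and 192 CPM in members against 8077 and 10201 CPM, and 1 cell gave 63.7% of the control UMIs. Tff2, the neck cell trefoil peptide, was 15.5 and 15.1 times lower than in the other cells. Pga5, a pepsinogen, was 3938 and 4159 CPM against 21291 and 24281 CPM. In non-epithelial clusters it was read at 428 and 632 CPM. Some listed genes were not low. Clps was lower in control members but close to equal in YapKO, with a log2 ratio of 0.10. Psca was 3.59 and 3.25 times higher in members, and Pla2g1b 3.61 and 3.26 times.

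Ghrl, the ghrelin gene, was 6.54 CPM in control members, from 2 UMIs, and 62.6 CPM in YapKO members, against 462 and 2098 CPM. Phgr1, Sprr2a3, Gkn3, Mucl3 and Gsta1 were 14.5 to 91.1 times lower in members in the 2 libraries, each from 8 or fewer member UMIs. S100a6 was 9.07 and 19.4 times lower. Over all genes the medians were -0.24 and -0.06, with 13.7% and 8.85% at least 2-fold lower. Gastric transcription factors had a median of -0.74 and -0.65, with 5 and 6 of 14 at least 2-fold lower. Klf5 was 222 and 145 CPM against 530 and 606 CPM, while Gata4 was 88.3 and 117 CPM against 59.2 and 66.9 CPM. Proliferation genes had a median of -1.11 and -0.64, with 10 of 15 and 3 of 12 lower. YAP-TEAD target genes had a median of -0.45 and -0.54, with 4 of 12 and 0 of 13 lower.

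Between YapKO and control ribosomal-rich members, 1064 of 6759 genes were at least 2-fold higher in YapKO, 15.7%, and 476 lower, 7.04%. Of 179 genes at least 2-fold above both the other cells of the group and the non-epithelial clusters in each library, 6 were 2-fold higher in YapKO and 7 lower, with a median of -0.09 beside 0.18 over all genes tested. That set leaves out the rule genes and any gene that lost or gained its 2-fold excess in 1 library, so it does not measure how far such genes differed. Oxidative phosphorylation genes had a median of -0.20 with 0 of 76 past 2-fold in either direction, and TCA cycle genes 0.12 with 1 of 18. Among acid and ion transport genes 3 of 15 were higher in YapKO and 0 lower, with a median of 0.35. These were Slc26a9, 3.48 times higher (2.39 to 5.21), Aqp4, 2.98 times (1.54 to 6.32), and Slc12a2, the basolateral chloride loader, 2.61 times (1.54 to 4.63). Most of the YapKO Aqp4 UMIs came from 1 cell, and Slc26a9 was also higher in YapKO in the other cells of the group. Slc4a2, Clic6, Kcne2 and Kcnq1 had intervals that include 1.

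Ppargc1a, the coactivator of mitochondrial gene programmes that partners with the receptor encoded by Esrrg, was 275 CPM in YapKO and 22.9 CPM in control ribosomal-rich members. Those are 136 UMIs in 17 of 47 cells and 7 UMIs in 7 of 40 cells, a ratio of 11.998 (5.67 to 30.4). With every cell weighted equally its log2 ratio was 1.49, against 3.33 from summed UMIs. It was also higher in the other cells of the group, 75.4 against 14.5 CPM, and in ribosomal-poor members, 99.3 against 18.5 CPM. Other genes with the highest ratios were Ddit4, a stress-induced inhibitor of mTOR signalling, 10.96 times higher (4.10 to 41.3) from 71 and 4 UMIs, and Mt2, a metallothionein, 5.81 times higher (4.21 to 8.23). With cells weighted equally the log2 ratio of Mt2 was 1.17, against 2.50, and that of Malat1 2.10, against 2.78. Clps, the pancreatic lipase cofactor, was 8.23 times higher, but 1 cell gave 79.3% of its YapKO UMIs. All 27 UMIs of Dapl1 came from 1 cell. Malat1 was 6.92 times higher, and Map7, a microtubule-binding protein, rested on 44 UMIs against 1, a ratio of 27.2 (4.63 to 1097). Akap9, Adam10, Cachd1 and Neurl3 rested on 2 or 3 control UMIs each.

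Several groups of genes were lower in YapKO ribosomal-rich members. Col1a1, Col1a2, Sparc, Mfap5, Fndc1, Aebp1, Htra3 and Itm2a are fibroblast or matrix transcripts. Of the 8 fibroblast markers 6 of 7 tested were at least 2-fold lower, with a median of -2.42. Their summed level was 7114 CPM in control members and 919 CPM in YapKO members, and 7795 and 1180 CPM in the other cells of the group, with a median of -2.12. Of the 5 erythroid genes 4 were at least 2-fold lower, with a median of -1.31, and of 7 fetal or regenerative genes 3, with a median of -0.42. Over all genes tested 7.04% were at least 2-fold lower and 15.7% higher, with a median of 0.18. Erythroid genes summed to 5279 and 2293 CPM in control and YapKO members and to 49745 and 24931 CPM in non-epithelial clusters. In non-epithelial clusters Col1a1 was 10358 and 1967 CPM. What part free fibroblast or red cell RNA had in these differences was not tested.

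A few others were higher in control members than in the other cells of their group. Fabp3, the heart-type fatty acid binding protein, was 471 CPM in control and 62.6 CPM in YapKO ribosomal-rich members, 7.52 times lower (5.07 to 11.5), against 11.2 and 14.996 CPM in the other cells. It had a UMI in 25 of 40 and 9 of 47 cells, and without the deepest 5% of members its log2 ratio was -1.95, against -2.82. Spp1, osteopontin, was 399 and 36.4 CPM, 10.98 times lower (6.66 to 19.1), against 83.0 and 67.1 CPM. With cells weighted equally its log2 ratio was -1.87, against -3.29. Hamp, the hormone hepcidin, was 62.1 and 4.04 CPM, from 19 and 2 UMIs in 5 and 2 cells, 15.4 times lower (3.71 to 136). Ifi27, an interferon-induced gene, was 114 and 12.1 CPM, and 104 and 66.0 CPM in non-epithelial clusters, with 60.0% of the control UMIs in 1 cell.

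**Figure D5:**
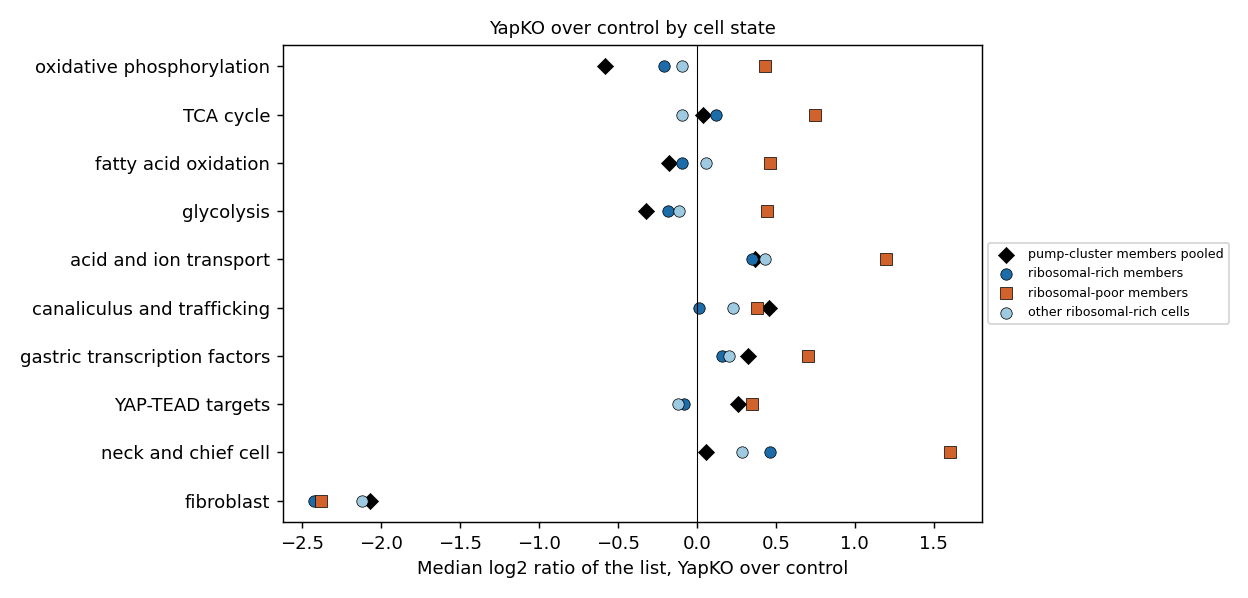
Median log2 ratio of YapKO over control (x) for 10 gene lists (y), in pump-cluster members pooled (black), in ribosomal-rich members (dark blue), in ribosomal-poor members (orange) and in the other ribosomal-rich cells (pale blue). Pooled members have an oxidative phosphorylation median of -0.58, ribosomal-rich members -0.20 and ribosomal-poor members 0.43, while fibroblast genes are low in every group.

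Pooling the states gave another picture for the energy genes. Over all pump-cluster members 1436 of 7388 genes were at least 2-fold higher in YapKO, 19.4%, and 400 lower, 5.41%. The higher genes were 78.2% of these, and 64.8% with trimmed-mean scaling. The oxidative phosphorylation median was -0.58 with 7 of 76 at least 2-fold lower, against 0 of 76 in ribosomal-rich members. In ribosomal-poor members the median was 0.43, beside a median of 0.47 over all genes. Those values rest on 53935 UMIs from 14 control cells. The acid and ion transport median was 1.20 in ribosomal-poor members. Within YapKO, ribosomal-poor members had a median of 1.43 for these genes and 0.59 for oxidative phosphorylation over the other cells of their own group, beside 0.06 over all genes.

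Over all 99 control and 298 YapKO members fewer genes differed from other epithelial cells than in the ribosomal-rich comparison. The comparison cells differed too, so the counts are not directly comparable. Here the other epithelial cells were those with at least 3 of 8 epithelial genes, 1463 in the control and 1576 in YapKO. The other epithelial clusters held only 937 and 1192 cells that were not members, so part of this set lay in non-epithelial clusters. In the control 109 of 7428 genes were at least 2-fold higher, 1.47%, and 103 lower, 1.39%. In YapKO 62 of 7760 were higher, 0.799%, and 74 lower, 0.954%. Between YapKO and control members 308 of 7786 genes were higher, 3.96%, and 332 lower, 4.26%. The acid and ion transport median was 1.17 and 1.35, and that of oxidative phosphorylation 0.59 and 0.32.

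The YAP5SA library held only 5 members, too few for sums. The 3 in the pump cluster had 1566, 2578 and 3725 UMIs, all in the ribosomal-rich group, with 5, 15 and 10 UMIs of Atp4a and 5, 23 and 7 of Atp4b. Sycn was at 0 in all 3. The 2 members elsewhere had 4 Atp4a UMIs each, with 0 and 5 of Atp4b, in cells of 3501 and 14196 UMIs. The ribosomal-rich group as a whole was 0.476% of filtered YAP5SA cells against 8.13% in the control, and its 3 members among 43 cells were 6.98% (1.46 to 19.1%), beside 6.75% in the control.

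Promoters are shown for 3 genes that stood out in members. Of 20 genes looked up, 15 had a window, and 8 of these held none of the 5 motifs searched on both strands. The sequences are from RefSeq on GRCm38.p6 and cover the 250 bases before the gene's start, or 30 bases around a match, with matches in capitals. In all 32851 windows TCAAGGTCA, the extended site of estrogen-related receptors, was found in 0.39%, its core AAGGTCA in 4.08%, the GATA motif AGATAA in 9.99%, the TEAD motif GGAATG in 12.64% and TATAAA in 12.37%. The pump gene Atp4a (chr7:30711959-30712208, plus strand) holds none of the 5, Slc26a9 (chr1:131743772-131744021, plus strand) holds AGATAA on the minus strand and TATAAA on both, overlapping, and Cst8 (chr2:148798780-148798809, plus strand) holds TCAAGGTCA, which contains AAGGTCA.
Atp4a: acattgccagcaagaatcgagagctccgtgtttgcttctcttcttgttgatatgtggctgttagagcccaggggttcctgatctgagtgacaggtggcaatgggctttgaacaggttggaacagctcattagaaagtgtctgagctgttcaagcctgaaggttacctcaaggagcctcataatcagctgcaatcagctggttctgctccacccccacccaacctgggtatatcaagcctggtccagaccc
Slc26a9: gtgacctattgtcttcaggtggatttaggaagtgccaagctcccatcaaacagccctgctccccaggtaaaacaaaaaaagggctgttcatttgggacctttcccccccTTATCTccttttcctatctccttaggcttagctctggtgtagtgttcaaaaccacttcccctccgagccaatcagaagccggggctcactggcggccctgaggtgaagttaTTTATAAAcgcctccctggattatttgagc
Cst8: tgcctgggctTCAAGGTCAggacttacata
A match describes these letters in this window and is no evidence of binding.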

How the data were processed

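Single-cell UMI counts per gene were deposited as 1 matrix a library. Per the file headers they were written by PISA 1.0, and per the submitters' processing notes STAR and GRCm39 were used. Total deposited UMIs were 48910624 in the control, 65843658 in YAP5SA and 40857358 in YapKO, over 7692, 9439 and 5739 cells. Cell names are running numbers, of which 3308, 3448 and 2427 recur in another library. Cells with at least 500 genes and at most 20% mitochondrial UMIs were clustered with scanpy 1.11.5 (3000 variable genes, 40 components, 15 neighbours, Leiden resolution 1), which gave 29 clusters, 7 of them epithelial. Scrublet's own threshold called 0 doublets, so the top 6% of scores were left out as an alternative.

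Counts were summed per group of cells and given as CPM. Ratios used log2 of CPM plus 5, over genes with at least 20 CPM in either sum. Named genes were those with at least 50 CPM and the largest ratios in the same direction in both libraries (15 higher, 10 lower), and the 12 largest each way between YapKO and control. Shares have Clopper-Pearson intervals and ratios conditional exact Poisson intervals at 95%, with numpy 2.4.6, scipy 1.17.1 and pandas 2.3.3. The members and gene lists were chosen with earlier results of these data known. The pump-cluster split, the ribosomal groups, the 10% threshold and leaving out the deepest 5% were chosen after seeing the data. The ratio and interval steps were tested on counts simulated from the sums of all members and of pump-cluster members. Those counts held no variation between cells, so the test cannot show how the intervals behave where 1 cell gives many of the UMIs.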

Additional observations from a re-analysis of the deposited data

Results flagged for a closer look

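Cachd1, a calcium channel regulator, was lower in ribosomal-rich members than in the other cells of their group in the control and higher in YapKO. It was 9.81 against 32.0 CPM in the control, from 3 member UMIs, and 72.7 against 30.9 CPM in YapKO, from 36 member UMIs, of which 1 cell gave 44.4%. The log2 ratios of the 2 libraries differed by 2.44. With 1 library a genotype the difference was not tested.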

How the results depend on the processing

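No paired analysis was possible because each genotype had 1 library. As a share of filtered cells, YapKO over control was 4.17 to 5.14 for all members, 3.90 to 4.42 in the pump cluster, 1.62 to 1.91 in the ribosomal-rich and 11.2 to 15.3 in the ribosomal-poor state over the alternatives run. Within their own group it was 1.14 to 1.32 for ribosomal-rich and 3.89 to 5.47 for ribosomal-poor members, and 1.93 to 2.05 for the pump cluster among epithelial cluster cells. Levels in ribosomal-poor members were not recomputed under the alternatives. Counts of 2-fold genes moved with the CPM minimum and with weighting cells equally. Between YapKO and control, all members gave 308 higher and 332 lower genes, and 136 and 193 with a 50 CPM minimum, 857 higher with the mean of per-cell CPM and 1097 higher with at least 4 rule genes. The pump cluster gave 1436 and 400, and 572 and 196 with 50 CPM, 605 lower with 10 CPM and 866 lower with the per-cell mean. Ribosomal-rich members gave 1064 and 476, and 1633 and 794 with 10 CPM, 387 and 170 with 50 CPM, and 1750 and 1166 with the per-cell mean. Against the other cells of their group, YapKO ribosomal-rich members gave 330 and 285 with 50 CPM and 1161 lower with the per-cell mean. Control ribosomal-rich members gave 268 and 359 with 50 CPM, 822 and 1441 with the mean, and 1403 lower with 10 CPM. Against other epithelial cells, YapKO members gave 287 higher and 713 lower with at least 4 rule genes, 33 and 38 with 50 CPM, 209 and 134 with the mean, and 114 lower both without the top Scrublet scores and with a pseudocount of 1. They gave 157 lower with members limited to cells with epithelial genes. Control members gave 467 and 1241 with at least 4 rule genes, 201 and 224 with epithelial genes, 60 and 60 with 50 CPM, 183 and 346 with the mean, 194 and 270 with comparison cells holding 5 of 8 epithelial genes, 157 lower with 10 CPM and 155 lower with a pseudocount of 1. For all members the acid and ion transport median was 2.08 in YapKO and 2.39 in the control with at least 4 rule genes, and 0.67 and 0.44 with 5 of 8 epithelial genes, and the control oxidative phosphorylation median was 1.25 with at least 4 rule genes. In YapKO ribosomal-rich members the acid median was 0.61 without the deepest 5%. The Apoa4 ratio in YapKO was 2.70 on the log2 scale and -0.70 with cells chosen by the 10% threshold. The causes were not tested.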
